A study of Homo sapiens with 4 samples.

Results

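Cells make cholesterol from acetyl-CoA through mevalonate, squalene and lanosterol, and they adjust this pathway to the sterol content of the endoplasmic reticulum membrane. When sterol is scarce, SCAP escorts the transcription factor SREBP-2, the product of SREBF2, to the Golgi, where it is cut and freed to act on genes of the pathway. When sterol is plentiful, the INSIG proteins hold SCAP back, and oxidised sterols activate the LXR receptors, whose targets export cholesterol. The 28 genes described here were taken by symbol from the 25133 named rows of the series, and all 28 were found. They comprise 18 enzymes of cholesterol synthesis, 4 genes of the sterol sensing machinery (SREBF2, SCAP, INSIG1 and INSIG2) and 6 genes of sterol transport, export and storage.

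The series holds 4 RNA sequencing libraries of MDA-MB-231, an established human triple-negative breast cancer cell line grown in medium with fetal bovine serum. The control group (shSCR, 2 libraries, genotype WT) was infected with a control short hairpin RNA, and the other group (shJARID2, 2 libraries, genotype JARID2 knockdown) with a hairpin against JARID2. JARID2 is an accessory subunit of Polycomb repressive complex 2, which methylates histone H3 at lysine 27. The comparison of the 2 groups asks which transcripts change when JARID2 is depleted. All 4 libraries share the infection; the sources used here do not give the hairpin sequences or the time after infection. Nothing in the labels tells separate cultures from repeat libraries, so the p-values rest on the spread among these 4 libraries alone, which may be technical. Levels are given in FPKM, a read number corrected for gene length and library depth that can be compared between genes, and means carry ± SD over n = 2 libraries. Each change is the mean log2(FPKM + 1) after knockdown minus that of the controls, a scale that shrinks the change of genes at low levels.

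Depths recovered from the FPKM steps were about 15500000 and 16200000 reads in shSCR and 13000000 and 12800000 in shJARID2. JARID2 itself measured 10.8 and 10.8 FPKM in the controls and 3.88 and 3.91 after knockdown, a ratio of 0.360. Of 7 markers of the line, the lowest was VIM at 2.10 to 4.20 FPKM, while CD44 lay at 68.9 FPKM or above in every library. Of genes the line is known to lack or hold at a low level, ESR1, PGR and CDH1 were at most 0.203 FPKM and GATA3 at most 0.451. FOXA1, of the same list, lay at 1.86 to 2.97 FPKM, near the values of VIM, and ERBB2 reached 15.7 FPKM. Among markers of leukocytes, endothelium and liver the highest value was 0.685 FPKM. Across 12041 genes, log2 fold changes decreased with the GC content of the transcripts (Spearman's rho -0.67, across genes, which are not independent replicates). The source of this trend was not tested. Values of a second fit, which removed it from each library and is called GC-corrected here, are given beside the measured ones.

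The gene that encodes the regulator of the pathway carries a sterol regulatory element in its own promoter. The sequence below is shown because SREBF2 was the only member whose promoter window held the string TCACNCCAC, used here for that element. Elements that depart from this string were not searched for, and ACAT2, FDFT1 and SQLE had no window. The printed sequence covers the 250 bases before the RefSeq start of SREBF2 on the + strand of GRCh38.p14, chr22:41832855-41833104. Capitals mark the match to the sterol regulatory element, written TCACNCCAC, from 133 to 125 bases before the start, and a CCAAT box, here as ATTGG on the opposite strand, from 106 to 102 bases before it. CCAAT boxes bind NF-Y, a known partner of SREBP-2.

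SREBF2 promoter: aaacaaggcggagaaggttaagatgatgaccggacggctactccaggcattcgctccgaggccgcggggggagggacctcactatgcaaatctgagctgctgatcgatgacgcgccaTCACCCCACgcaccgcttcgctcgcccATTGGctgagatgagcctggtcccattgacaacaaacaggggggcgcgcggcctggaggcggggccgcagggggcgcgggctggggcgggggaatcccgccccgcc

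Promoter windows from 250 bases before to 50 bases after the start were at hand for 25 of the 28 genes, in 32 windows, from RefSeq. TCACNCCAC, searched on both strands, was in 1 of these 32 windows and in 1.13% of all 35116 windows. CCAAT on either strand was in 20 of the 32 windows (62.5%) and in 34.6% of all windows. GGGCGG, the core of an SP1 site, was in 30 of the 32 windows and in 45% of all windows. None of the 3 motifs contains another. The windows of all genes were not matched to those of the members for GC content or expression. Member windows held 57% to 78.3% GC, so these shares are not a test of enrichment. A window with a CCAAT box belonged to 4 of the 5 members that rose and to 10 of the 15 members that fell and had a window. The box was thus found among members of both directions. A match is a description of letters in a window, not evidence of binding.

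Of the 27 sterol genes that passed the filter of a mean of 1 FPKM, 16 fell, 5 rose and 6 did not pass the test at an adjusted p below 0.05 (limma, Benjamini-Hochberg over all genes tested). The 21 calls are 77.8% of the members, against 59.7% of all 12455 genes tested. Falls made up 59.3% of the members against 31.6% of all genes, and rises 18.5% against 28% of all genes. The median log2 fold change was -0.42 over the members and -0.018 over all genes tested. After GC correction 13 members were lower and 6 higher, which is 48.1% and 22.2% of them, against 21.5% and 22.7% of all genes (70.4% called in either direction against 44.2%), and the medians were -0.13 and 0.00049. FPKM of the groups did not overlap for 24 of the 27 members, 8 higher and 16 lower, against 82.9% of all genes tested (39.8% higher and 43.1% lower). On the log2(FPKM + 1) scale, a fitted fall of 2-fold or more was called for 5 of the 27 members (18.5%), against 6.20% of all genes. These were MVD, CYP51A1, TM7SF2, SREBF2 and NR1H2. No member rose by as much on this scale, against 2.83% of all genes. The scale shrinks changes at low levels, and these counts depend on it. The ratio of mean FPKM, knockdown over control, was 2.54 for ABCA1, 0.451 for PMVK and 0.488 for NSDHL. After GC correction 2 members, SQLE and CYP51A1, were lower by 2-fold or more and none higher, against 1.88% and 1.81% of all genes.

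**Figure D1:**
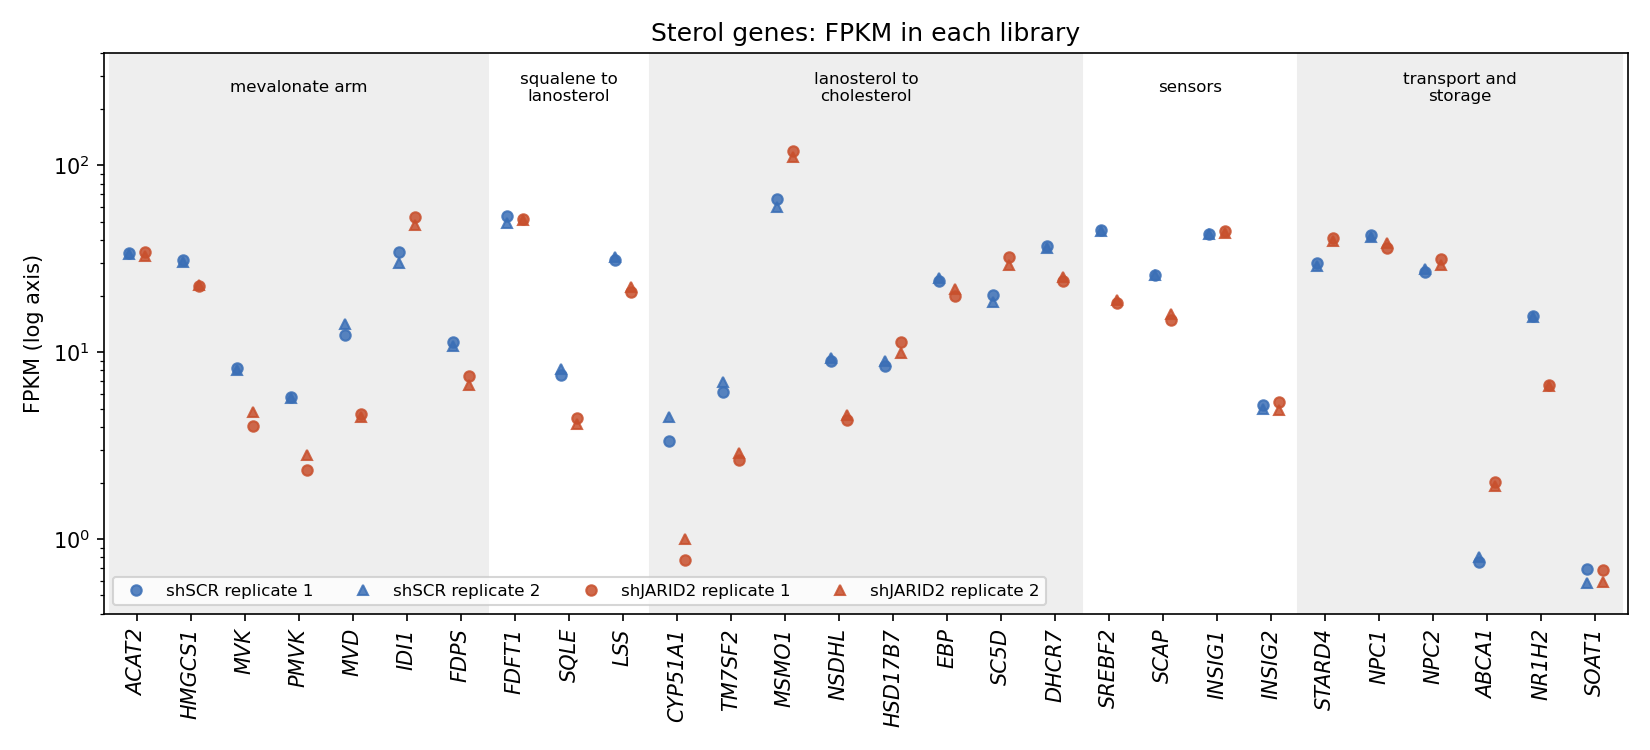
FPKM of the 28 sterol genes (log axis) in the order of the pathway, with 1 point per library, shSCR in blue and shJARID2 in orange, circles for replicate 1 and triangles for replicate 2. MSMO1, IDI1, SC5D, STARD4 and ABCA1 stand higher in both shJARID2 libraries, and SREBF2 drops from about 45 to 18.4 and 19.0 FPKM.

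The mevalonate arm, which builds the isoprene units, was mostly lower, with IDI1 as the exception. Of its 7 genes, 5 fell (71.4%, against 31.6% of all genes tested), 1 rose (14.3%, against 28%) and 1 did not pass the test. After GC correction 4 were lower and 1 higher (57.1% and 14.3%, against 21.5% and 22.7% of all genes). ACAT2, which joins acetyl-CoA units in the cytosol, measured 33.9 and 33.8 FPKM in the controls and 34.4 and 32.8 after knockdown. The groups overlapped, and the change of ACAT2 did not pass (log2 fold change -0.0097, SE 0.0448, adjusted p = 0.87). HMGCS1, which makes HMG-CoA, measured 31.0 and 30.5 FPKM in the controls and 22.7 and 23.0 after knockdown. HMGCS1 fell by 0.42 on the log2 scale (SE 0.042, adjusted p = 0.0024), and by 0.72 after GC correction (adjusted p = 0.0017), at a transcript GC content of 41.8%.

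The 2 kinases and the decarboxylase that turn mevalonate into isopentenyl diphosphate were all lower in both shJARID2 libraries. MVK, mevalonate kinase, measured 8.22 and 8.04 FPKM in the controls and 4.05 and 4.78 after knockdown. PMVK, phosphomevalonate kinase, measured 5.75 and 5.70 FPKM in the controls and 2.35 and 2.81 after knockdown. MVD, the decarboxylase, measured 12.3 and 14.1 FPKM in the controls and 4.67 and 4.50 after knockdown, a ratio of 0.347. The 3 genes have GC contents of 60.5%, 59.5% and 63.9%, and their changes shrank with GC correction. MVK fell by 0.76 as measured and was at -0.13 after correction, where it did not pass (adjusted p = 0.20). PMVK fell by 0.91 and, after correction, by 0.33 (adjusted p = 0.028), from only 114 and 118 reads in shSCR and 39 and 46 in shJARID2. MVD fell by 1.35 (SE 0.084, adjusted p = 0.0014) and by 0.57 after correction (adjusted p = 0.0069). MVD spans bases 88651935 to 88663161 of chromosome 16 (GRCh38, - strand, GENCODE 29).

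IDI1, the isomerase that makes dimethylallyl diphosphate, moved the other way from its neighbours. It measured 34.6 and 30.2 FPKM in the controls and 53.0 and 48.2 after knockdown, so both shJARID2 libraries lay above both controls. IDI1 rose by 0.63 (SE 0.087, adjusted p = 0.0050) and by 0.34 after GC correction (adjusted p = 0.018). FDPS, which makes farnesyl diphosphate, measured 11.4 and 10.8 FPKM in the controls and 7.50 and 6.72 after knockdown, a fall of 0.58 (SE 0.076, adjusted p = 0.0044) and of 0.32 after correction. FDPS has 8 annotated pseudogene copies and shares 18.6% of its exon bases with an antisense gene, and HMGCS1, IDI1 and ACAT2 share 15%, 14.8% and 52.3% with genes on the opposite strand. The sources used here do not give the use of strand or the handling of reads with several matches, so the values of these 4 genes are uncertain.

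From farnesyl diphosphate to lanosterol, the first enzyme did not pass the test and the next 2 fell. The falls were 66.7% of these 3 genes, against 31.6% of all genes tested, and 33.3% against 21.5% after GC correction. FDFT1, squalene synthase, measured 53.5 and 49.3 FPKM in the controls and 51.6 and 51.1 after knockdown. The groups overlapped, and the log2 fold change of FDFT1 was 0.00065 (SE 0.054, adjusted p = 0.99). SQLE, squalene epoxidase, a rate-limiting step of the later pathway, measured 7.58 and 8.19 FPKM in the controls and 4.47 and 4.14 after knockdown, a ratio of 0.545. SQLE fell by 0.75 (SE 0.077, adjusted p = 0.0025), and by 1.07 after GC correction (adjusted p = 0.0021). At a GC content of 40.8% it stood among genes that mostly moved the other way: the median over 2966 genes of 40% to 45% GC was 0.28. LSS, which closes the ring to lanosterol, measured 31.1 and 32.5 FPKM in the controls and 21.0 and 22.3 after knockdown. LSS fell by 0.53 as measured (adjusted p = 0.0023), but after GC correction its change was -0.019 and did not pass (adjusted p = 0.69).

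The enzymes from lanosterol to cholesterol split, with 5 falls and 2 rises among 8 (62.5% and 25%, against 31.6% and 28% of all genes tested). After GC correction 3 were lower and 3 higher, each 37.5%, against 21.5% and 22.7% of all genes. The largest fitted fall of the tested members was at the first step, in a gene of low level. CYP51A1, lanosterol demethylase, measured 3.37 and 4.49 FPKM in the controls and 0.777 and 0.997 after knockdown, a ratio of 0.226. CYP51A1 fell by 1.38 (SE 0.16, adjusted p = 0.0031) and by 1.71 after GC correction (adjusted p = 0.0033). Its shJARID2 values lie under 1 FPKM, so it passed the filter only through the controls. CYP51A1 spans bases 92112151 to 92134803 of chromosome 7 (GRCh38, - strand). Exons of a neighbouring gene model on the same strand, AC000120.2, cover 79.4% of its exon bases, other genes bring this to 83.2%, and it has 3 annotated pseudogene copies. Its FPKM also gave no whole reads with the GENCODE 29 length, so its level and its fall are uncertain.

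MSMO1, which removes the methyl groups at carbon C4 together with NSDHL, was the most abundant member and rose, while NSDHL fell. MSMO1 measured 66.4 and 60.3 FPKM in the controls and 119.9 and 111.5 after knockdown, a ratio of 1.83. It rose by 0.86 (SE 0.069, adjusted p = 0.0017) and by 0.44 after GC correction (adjusted p = 0.0041). MSMO1 spans bases 165327623 to 165343160 of chromosome 4 (GRCh38, + strand), shares no exon bases with other genes and was read from 2822 to 4489 reads per library. NSDHL, the C4 dehydrogenase, measured 8.95 and 9.38 FPKM in the controls and 4.33 and 4.62 after knockdown. NSDHL fell by 0.89 (SE 0.068, adjusted p = 0.0016) and by 0.75 after correction (adjusted p = 0.0025). HSD17B7, the ketoreductase of the same C4 step, measured 8.48 and 8.97 FPKM in the controls and 11.3 and 9.94 after knockdown. The groups did not overlap, but HSD17B7 did not pass the test (0.26, adjusted p = 0.052, and 0.044 after correction). It passed under 5 alternatives, with other scalings or filters, with limma-voom on recovered reads, or without shJARID2 replicate 2. HSD17B7 has 2 annotated pseudogene copies and its FPKM gave no whole reads with the GENCODE 29 length, so its level and its limma-voom result are uncertain.

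The changes of TM7SF2, SC5D and DHCR7, also of this arm, shrank with GC correction. TM7SF2, a C14-sterol reductase, measured 6.12 and 6.98 FPKM in the controls and 2.65 and 2.89 after knockdown. TM7SF2 fell by 1.0 (SE 0.095, adjusted p = 0.0022), which at a GC content of 62.7% became -0.27 after correction (adjusted p = 0.044). SC5D, which sets the C5 double bond, measured 20.3 and 18.5 FPKM in the controls and 32.4 and 29.3 after knockdown. SC5D rose by 0.64 (SE 0.076, adjusted p = 0.0034) and by 0.24 after correction (adjusted p = 0.026). DHCR7, which reduces 7-dehydrocholesterol, measured 37.1 and 36.1 FPKM in the controls and 24.2 and 25.3 after knockdown, a fall of 0.55 (adjusted p = 0.0018) that was not called after correction (-0.067, adjusted p = 0.27).

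EBP, the sterol isomerase, was the only member called in opposite directions by the 2 fits. EBP measured 24.2 and 25.0 FPKM in the controls and 19.97 and 21.9 after knockdown, a change of -0.22 (adjusted p = 0.036) that became 0.15 after GC correction (adjusted p = 0.044). The measured call of EBP was lost without shSCR replicate 1 (-0.25), shSCR replicate 2 (-0.20) or shJARID2 replicate 1 (-0.16), and the corrected one without any single library. The measured call was also lost with no filter on low values, with rescaling to an equal total and with no trend in the prior variance.

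**Figure D2:**
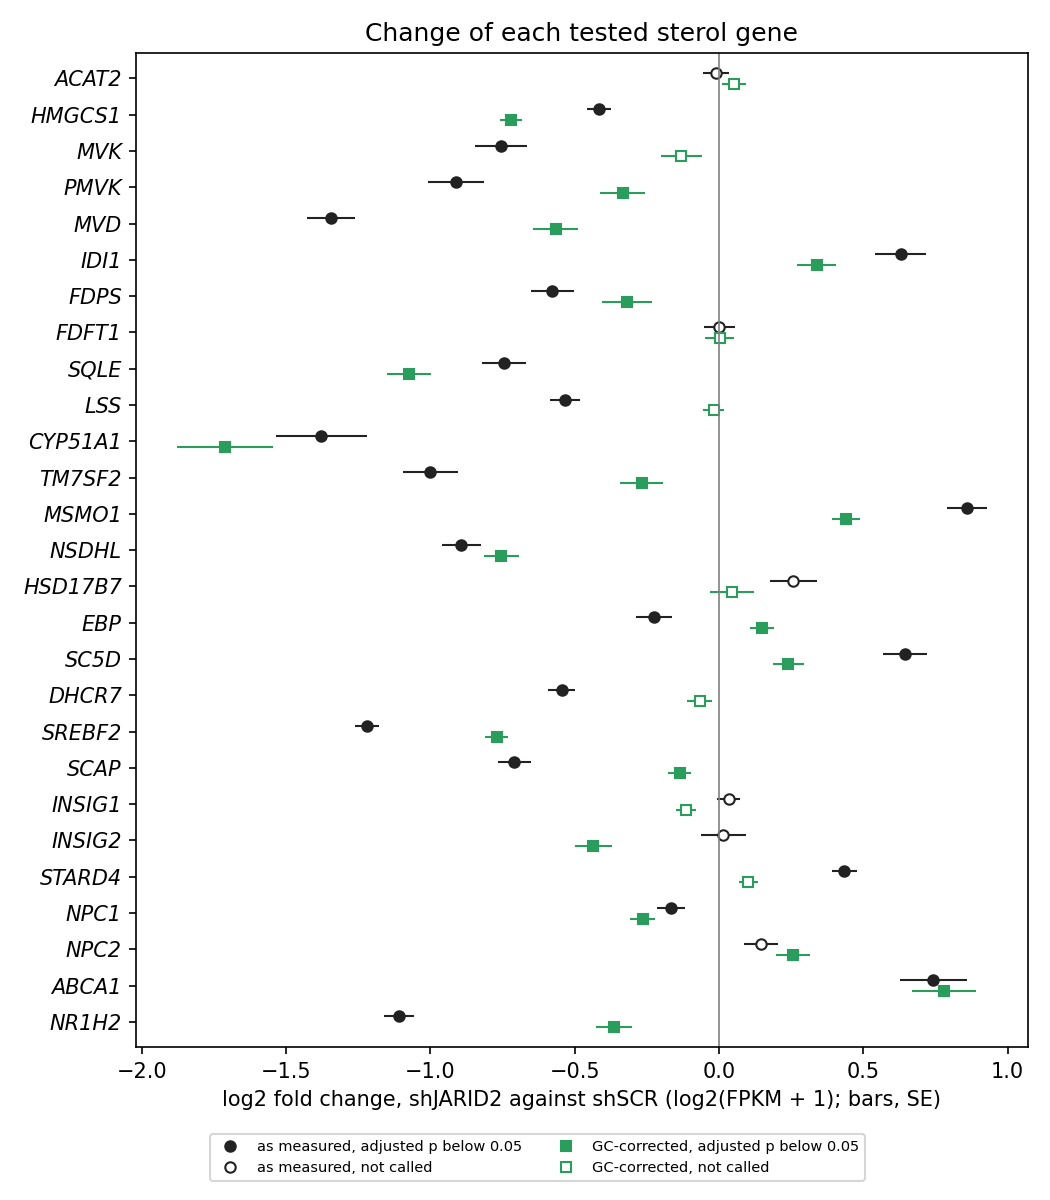
Log2 fold change of shJARID2 against shSCR (x axis, bars are SE of the limma fit) for the 27 tested sterol genes, as measured (black circles) and GC-corrected (green squares), filled where the adjusted p was below 0.05. HMGCS1, SQLE and CYP51A1 lie further below 0 after correction, while MVK, LSS and DHCR7 move to near 0 and EBP crosses it.

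Summed over each arm, the levels hide these splits. The 8 genes from lanosterol to cholesterol summed to 172 ± 3.67 FPKM in the controls and 211 ± 6.41 after knockdown, but without MSMO1 the sums were 109 ± 0.638 and 95.3 ± 0.508. MSMO1 alone made up 15.9% of the summed FPKM of the 18 enzymes in shSCR and 27.9% in shJARID2. The mevalonate arm summed to 135 ± 2.85 and 126 ± 4.11 FPKM, and the 3 genes from squalene to lanosterol to 91.1 ± 1.54 and 77.3 ± 0.313. The 4 sensor genes summed to 119 ± 0.122 FPKM in the controls and 83.3 ± 0.201 after knockdown, a ratio of 0.701, and the 6 transport and storage genes to 116 ± 0.279 and 117 ± 1.22. The sums were not tested.

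**Figure D3:**
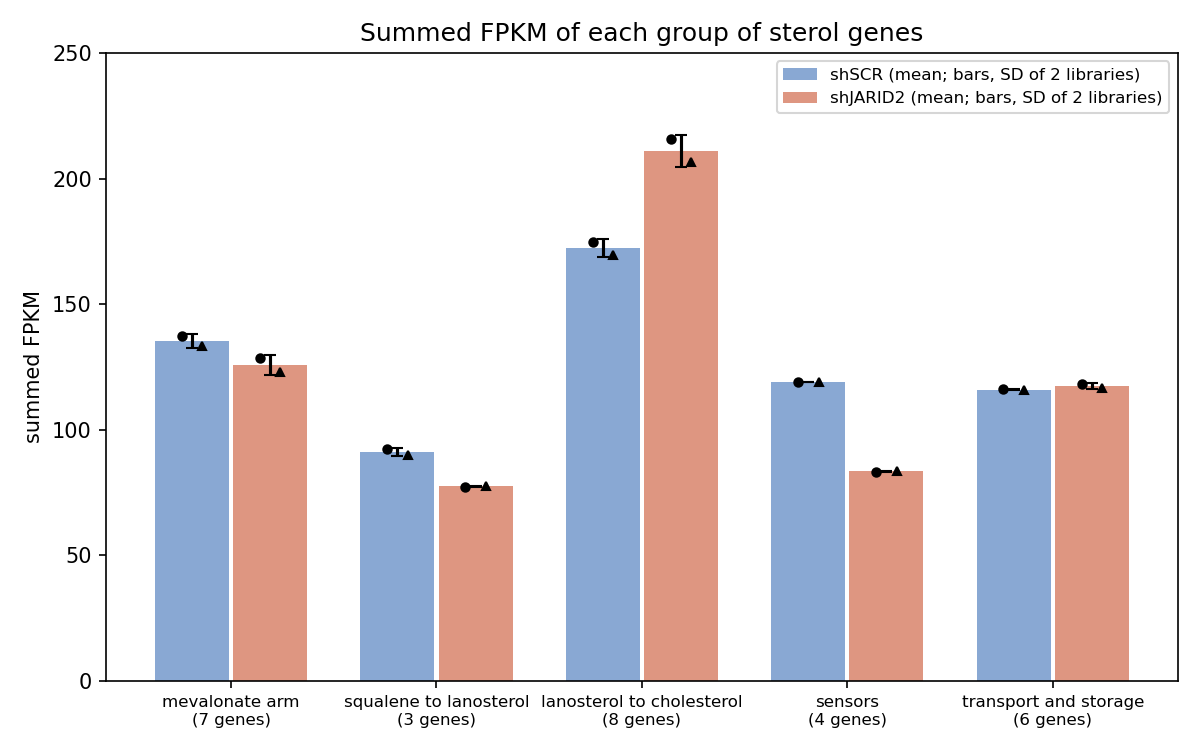
Summed FPKM of each group of sterol genes (y axis from 0), with bars at the mean of 2 libraries, error bars of 1 SD and black points for the libraries (circle, replicate 1; triangle, replicate 2). The sum from lanosterol to cholesterol is higher in shJARID2 (211 against 172 FPKM) and that of the sensors lower (83.3 against 119).

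Among the sterol sensors, the transcripts of the activator and its escort fell, while those of the INSIG proteins did not pass the test as measured. SREBF2, which encodes SREBP-2, measured 45.1 and 44.8 FPKM in the controls and 18.4 and 19.0 after knockdown, a ratio of 0.416. This was a fall of 1.22 (SE 0.042, adjusted p = 0.0014), and of 0.77 after GC correction (SE 0.040, adjusted p = 0.0017). The counts behind it were 5278 and 5479 reads in shSCR and 1805 and 1836 in shJARID2. SREBF2, whose promoter is printed above, spans bases 41833079 to 41907308 of chromosome 22 (GRCh38, + strand), and 3.71% of its exon bases are shared with an antisense gene.

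SCAP, the escort of SREBP-2, measured 25.9 and 26.1 FPKM in the controls and 14.9 and 16.1 after knockdown. SCAP fell by 0.71 (SE 0.056, adjusted p = 0.0017), of which 0.14 was left after correction (adjusted p = 0.048) at a GC content of 59.4%. The FPKM of SCAP gave no whole reads with the GENCODE 29 length, so that its gene model, and with it its GC content, is uncertain. INSIG1, an anchor of SCAP and itself a target of SREBP-2, measured 42.8 and 42.9 FPKM in the controls and 44.4 and 43.4 after knockdown. Its change did not pass in either fit (0.034, SE 0.040, adjusted p = 0.50, and -0.11 after correction, adjusted p = 0.053). INSIG2, the paralogue that is not under SREBP-2 control in most cells, measured 5.21 and 4.97 FPKM in the controls and 5.40 and 4.92 after knockdown. The groups overlapped and INSIG2 did not pass as measured (0.015, adjusted p = 0.88). At a GC content of 37.2%, the lowest of the members, it was called lower after correction (-0.44, adjusted p = 0.0082). For SREBF2 and its target INSIG1 the difference between the 2 changes was not tested.

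Sterol transport, export and storage genes moved both ways, with 2 rises and 2 falls among 5 tested. Rises and falls were each 40% of these, in both fits. The shares of all genes were 28% higher and 31.6% lower, and 22.7% and 21.5% after GC correction. STARD4, a carrier of cholesterol through the cytosol, measured 29.9 and 29.1 FPKM in the controls and 40.8 and 39.6 after knockdown. STARD4 rose by 0.43 (SE 0.044, adjusted p = 0.0024), but with a GC content of 40.6% it was at 0.10 after correction and did not pass (adjusted p = 0.069). NPC1, which exports cholesterol from lysosomes, measured 42.3 and 41.6 FPKM in the controls and 36.2 and 38.4 after knockdown. NPC1 fell by 0.17 (adjusted p = 0.040) and by 0.27 after correction (adjusted p = 0.011). Its measured call was lost under 8 alternatives, among them the replicate block (-0.17, adjusted p = 0.051) and the fits without shSCR replicate 1 (-0.16), shSCR replicate 2 (-0.18) or shJARID2 replicate 1 (-0.13). NPC2, its soluble partner, measured 26.8 and 28.1 FPKM in the controls and 31.7 and 29.3 after knockdown. NPC2 did not pass as measured (0.15, adjusted p = 0.097) and was called higher after correction (0.26, adjusted p = 0.027) and with limma-voom on recovered reads (0.17).

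Of the 2 members on the LXR axis, the transcript of the receptor NR1H2 fell and that of the exporter ABCA1 rose. NR1H2, which encodes LXR-beta, measured 15.6 and 15.5 FPKM in the controls and 6.71 and 6.64 after knockdown, a ratio of 0.429. NR1H2 fell by 1.11 (SE 0.051, adjusted p = 0.0014) and, at a GC content of 63.0%, by 0.36 after correction (adjusted p = 0.012). NR1H3, which encodes the other LXR receptor and is not a member, fell by 0.32 as measured (limma, adjusted p = 0.048). After correction NR1H3 was at 0.22 and did not pass (adjusted p = 0.12). ABCA1, the exporter of cholesterol to apolipoproteins and a classical LXR target, was at 0.750 and 0.800 FPKM in the controls and 2.01 and 1.93 after knockdown, a ratio of 2.54. It rose by 0.74 (SE 0.12, adjusted p = 0.0070) and by 0.78 after correction (adjusted p = 0.0075). The reads of ABCA1 were 132 and 147 in shSCR and 296 and 280 in shJARID2, so the precision is lower than for SREBF2, and it passed the filter only through the shJARID2 libraries. With a pseudocount of 0.1 its log2 fold change was 1.24. SOAT1, which esterifies cholesterol for storage, did not reach the filter, with 0.691 and 0.582 FPKM in the controls and 0.683 and 0.591 after knockdown, from 53 to 75 reads. The groups of SOAT1 overlapped, and without the filter its change was 0.00087 (limma, adjusted p = 0.995).

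The changes of the members followed the GC content of their transcripts, as those of all genes did. Over the 27 genes, Pearson's r between GC content and log2 fold change was -0.62 and Spearman's rho -0.63. These points share the same 4 libraries. All 10 members with a GC content of 55% or more fell as measured, over a range of -0.22 to -1.35, against medians of -0.47 over 1808 genes of 55% to 60% GC and -0.71 over 1258 genes of 60% to 65%. Of the 9 members under 45% GC, 4 rose (MSMO1, SC5D, IDI1 and STARD4) and 3 fell (HMGCS1, SQLE and CYP51A1), while the medians of all genes were 0.45 from 35% to 40% and 0.28 from 40% to 45%. ABCA1, at 49.6%, rose by 0.74 where the median over 2394 genes of 45% to 50% was 0.070.

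**Figure D4:**
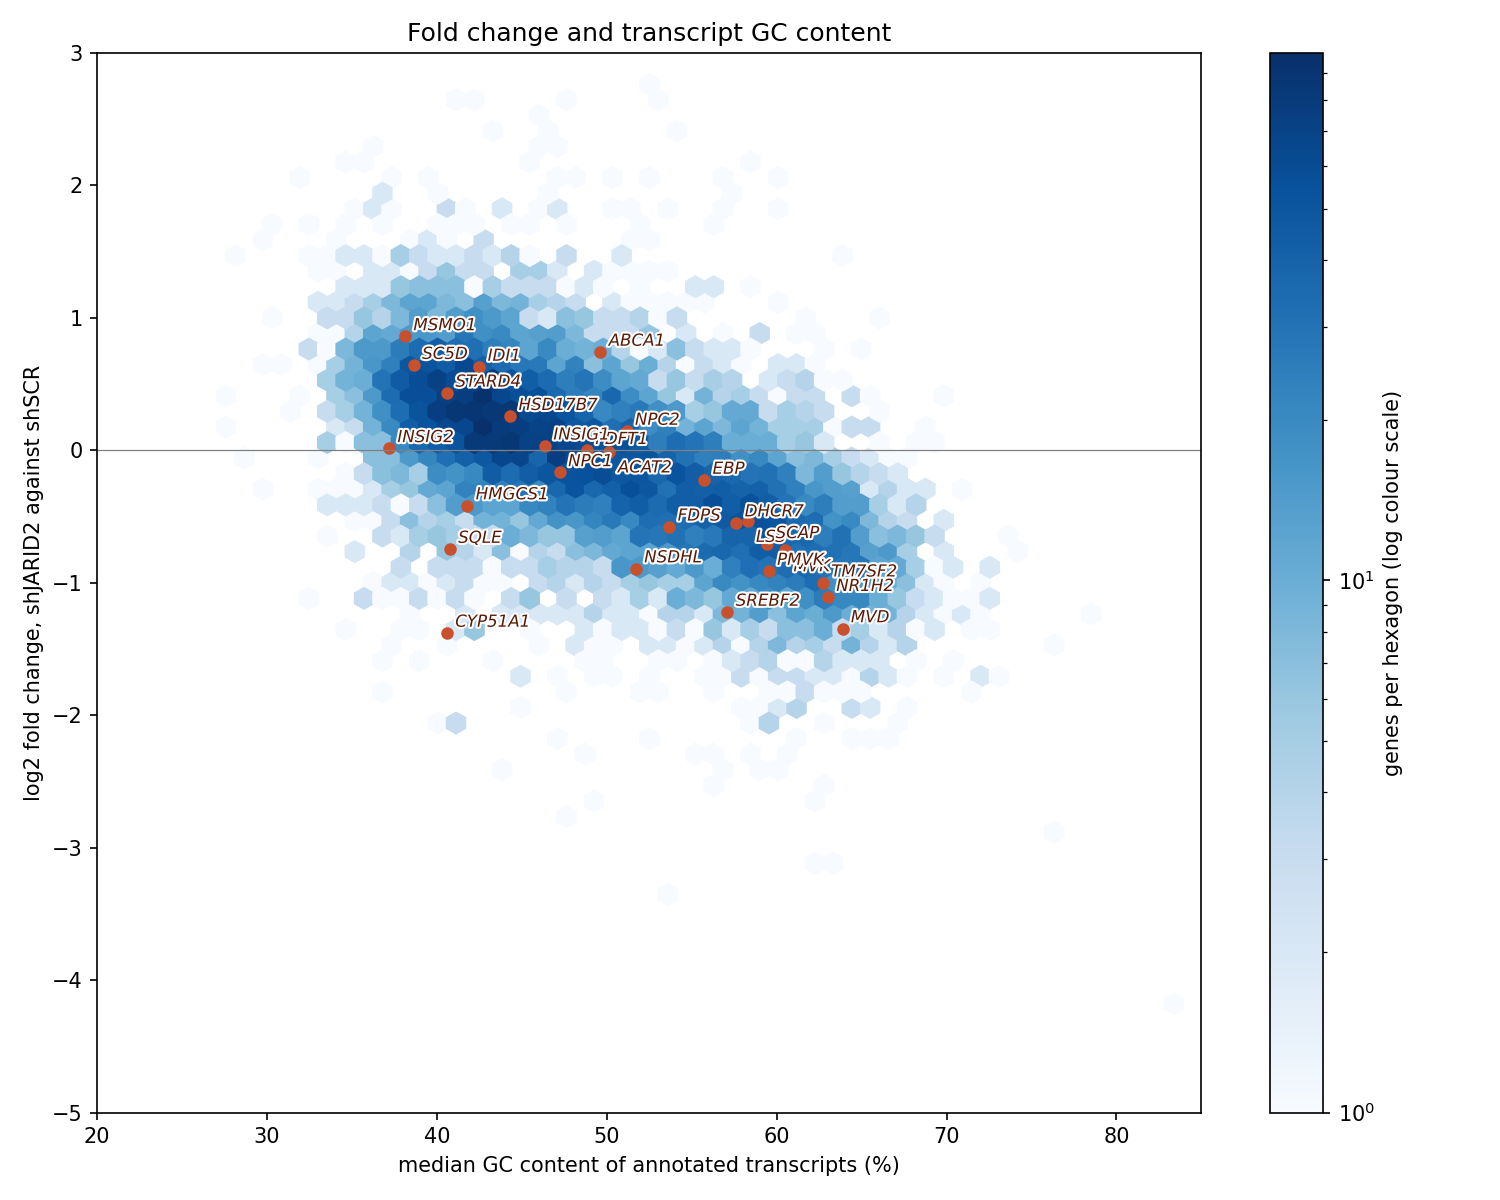
Median GC content of annotated transcripts (x axis, %) against the log2 fold change of shJARID2 over shSCR (y axis), with 12041 tested genes as hexagons coloured by number (log colour scale) and the 27 sterol genes as labelled orange points. Relative to genes of like GC content, CYP51A1, SQLE, SREBF2, NSDHL and HMGCS1 lie furthest below (GC-corrected changes -1.71, -1.07, -0.77, -0.75 and -0.72). ABCA1 lies furthest above (0.78). Most other members of high GC content lie within the main body.

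In total 12 members kept their call under each of the 14 other settings and left-out libraries that could test them, GC correction included. The falls among these were HMGCS1, MVD, FDPS, SQLE, CYP51A1, NSDHL, SREBF2 and NR1H2, and the rises were IDI1, MSMO1, SC5D and ABCA1. CYP51A1 and ABCA1 passed the filter only through the group where they are high, which favours their calls. Neither could be tested at a mean of at least 5 FPKM, and the reads of CYP51A1 are uncertain. The values of HMGCS1, IDI1 and FDPS are uncertain too, since they share exon bases with other genes. GC-corrected calls were less stable to the loss of a library: of 19 calls, 12 were lost without at least 1 library. HMGCS1, MVD, SQLE, CYP51A1, NSDHL and SREBF2 (lower) and MSMO1 (higher) held in all 4 such fits. The corrected calls of TM7SF2, SCAP and EBP were lost whichever library was left out. Those of INSIG2, NPC1 and NR1H2 were lost without shSCR replicate 1 or 2, those of PMVK, SC5D and NPC2 without either of these or shJARID2 replicate 1, that of FDPS without either or shJARID2 replicate 2, that of IDI1 without shSCR replicate 2 or shJARID2 replicate 1, and that of ABCA1 without shSCR replicate 1.

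Other genes of sterol synthesis, its branches, its control and sterol transport moved in both directions. All 55 genes on this list were found, 46 passed the filter, and 16 rose (34.8%, against 28% of all genes tested) and 17 fell (37.0%, against 31.6%), with a median log2 fold change of -0.057. After GC correction 12 were higher (26.1%) and 10 lower (21.7%), near the 22.7% and 21.5% of all genes, with a median of 0.074. Without shSCR replicate 1, 9 rose and 10 fell, and without shSCR replicate 2, 10 rose and 9 fell. LBR, a second C14-sterol reductase that also anchors the nuclear lamina, measured 48.1 and 48.1 FPKM in the controls and 78.0 and 74.9 after knockdown. LBR rose by 0.66 (SE 0.042, adjusted p = 0.0014) and by 0.34 after correction, whereas TM7SF2, which carries out the same step, fell. The difference between the changes of the 2 reductases was not tested.

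Among called genes of that list with a mean of at least 5 FPKM, the largest rises were in ACAT1, the mitochondrial counterpart of ACAT2 (11.1 ± 0.329 to 24.3 ± 2.45 FPKM), and in COQ2 of ubiquinone synthesis (3.54 ± 0.133 to 7.71 ± 0.670). They rose by 1.06 and 0.94, and by 0.75 and 0.91 after correction. NUS1 of dolichol synthesis, which has 4 pseudogene copies, rose by 0.66 (0.24 after correction), and so did RNF139, a sterol-sensing ubiquitin ligase (0.67), whose call ended with correction (0.36, adjusted p = 0.057). By the same limit on level, the largest falls were in STARD3, a late endosomal sterol carrier (10.3 ± 0.0841 to 4.53 ± 0.207 FPKM), and TSPO, a mitochondrial outer membrane protein (81.7 ± 6.63 to 43.1 ± 0.460). STARD3 fell by 1.04 and by 0.42 after correction, and TSPO by 0.91 with no call after correction (-0.092, adjusted p = 0.20). SREBF1, which encodes SREBP-1, went from 20.8 ± 1.36 to 13.2 ± 0.305 FPKM. Its fall of 0.62 was likewise not called after correction (0.14, adjusted p = 0.077).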

How the data were processed

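RNA sequencing of 4 MDA-MB-231 libraries was processed with Trimmomatic, HISAT2, SAMtools and featureCounts, per the submitters' processing notes; the sources used here do not give versions, build, annotation or strand. Each library was deposited by the authors as FPKM in 85553 rows; the 60420 rows without a symbol were left out. Multiplied by GENCODE release 29 exon lengths (24205 rows matched by symbol and 7 by an older one), FPKM fell on whole reads: of values up to 20 reads, 95.9% to 96.4% were whole to within 0.05. The steps gave the depths, and whole reads for 25 of the 28 members. Read numbers cover counting error only.

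Rows with a mean of at least 1 FPKM were tested on log2(FPKM + 1), pseudocount 1, with limma 3.58.1 in R 4.3.3 (trend in the prior variance, group as the only term, 2 residual and 2.36 prior degrees of freedom) and Benjamini-Hochberg adjustment over all rows. GC correction subtracted, per library, a loess smooth (span 0.3, degree 2) of deviations on the median transcript GC content, known for 96.7% of tested genes. The steps were run on simulated data in which few genes changed. Most tested genes were called here, so that run does not check the GC correction under so many changes. Genes with 10% or more of exon bases shared or 2 or more pseudogene copies were treated as uncertain. The members, lists and alternatives, GC correction among them, were chosen with earlier results of these data known. Named genes were all members, JARID2, and from the other list called genes with a mean of at least 5 FPKM, at most 5 in each direction, some of which are not reported here. Promoters came from RefSeq (GRCh38.p14).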

Additional observations from a re-analysis of the deposited data

How the results depend on the processing

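The number of sterol genes called higher (5) and lower (16) ranged from 5 to 7 and from 13 to 16 over the alternatives without GC correction. With the replicate block and GC correction together 10 were lower. Leaving out a library gave 5 to 6 higher and 14 to 16 lower, and 2 to 5 and 6 to 10 when GC-corrected (added after seeing the data); the group of the lone library is then assumed to vary like the other. Without the 6 members whose reads may be shared, 4 were higher and 13 lower. Of the other sterol genes (16 higher, 17 lower), 10 were lower after GC correction, and 10 were higher and 8 lower with the block added; leaving out a library gave 9 to 16 higher and 9 to 16 lower, and 5 to 10 and 3 to 9 when GC-corrected. Over all genes (3493 higher, 3941 lower), 2588 were lower with a mean of at least 5 FPKM, 2584 after GC correction and 2328 with the block added; leaving out a library gave 2168 to 3068 higher and 2462 to 3763 lower. When GC-corrected, 1528 were higher and 1215 lower without shSCR replicate 1, 1335 and 1063 without shSCR replicate 2, 1977 and 1940 without shJARID2 replicate 1, and 2303 and 2241 without shJARID2 replicate 2. The cause of these moves was not tested, beyond the smaller number of genes or libraries.

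Signs turned for genes near 0. ACAT2 was at 0.016 with median-ratio scaling, 0.010 rescaled to an equal total, 0.010 with limma-voom, and 0.051 GC-corrected, with or without the block; -0.042 to 0.022 with a library left out, and 0.014, 0.051, 0.052 and 0.089 in the same fits GC-corrected. GC-corrected, with or without the block, EBP was at 0.15, INSIG1 at -0.11 and INSIG2 at -0.44, and with a library left out as well at 0.12, 0.14, 0.15 and 0.18 (EBP), -0.13, -0.12, -0.11 and -0.099 (INSIG1), and -0.47, -0.44, -0.43 and -0.40 (INSIG2). Without GC correction INSIG2 ranged from -0.040 to 0.070 with a library left out, and FDFT1 from -0.057 to 0.058. GC-corrected, FDFT1 was at -0.053 without shSCR replicate 2 and -0.0088 without shJARID2 replicate 1. HSD17B7 was at -0.0078 and -0.032 GC-corrected without shSCR replicate 1 and shJARID2 replicate 1.

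Gene by gene, the replicate differences of the 2 groups were hardly correlated (Pearson's r 0.029 across 12455 genes). Replicate 2 minus replicate 1 nevertheless followed GC content alike in both groups (Spearman's rho 0.29 in shSCR and 0.30 in shJARID2), a deviation that same-numbered libraries share. The labels do not say whether the numbers pair the samples, and the main fit does not pair them. With the replicate block alone 5 sterol genes were higher and 15 lower, and 3380 and 3831 of all genes. With block and GC correction together, the GC-corrected calls of PMVK (-0.33), TM7SF2 (-0.27), SCAP (-0.14) and EBP (0.15) were lost at the same values. Among members with whole reads, the lowest totals were those of SOAT1, PMVK, NSDHL, ABCA1 and TM7SF2, which limits their precision.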

Other observations

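Several enzymes of sterol synthesis draw electrons from microsomal carriers, and 3 of these carriers were on the list of other sterol genes; they are singled out here after their values were seen. POR, the reductase that feeds CYP51A1 and SQLE, measured 6.44 and 7.27 FPKM in the controls and 2.83 and 2.56 after knockdown, and fell by 1.09 (SE 0.094, adjusted p = 0.0019), and by 0.51 after GC correction (adjusted p = 0.017). CYB5R3, the reductase of cytochrome b5, measured 6.40 and 6.36 FPKM in the controls and 2.47 and 3.35 after knockdown, a fall of 0.93 (adjusted p = 0.0052) that was not called after correction (-0.26, adjusted p = 0.11). CYB5A, which encodes cytochrome b5, did not pass (-0.046, adjusted p = 0.78) at 1.07 and 1.03 FPKM in the controls and 1.07 and 0.914 after knockdown.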
